A study of Homo sapiens with 10 samples.

Results

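Ribosomal protein pseudogenes are copies of ribosomal protein mRNAs that were reverse transcribed and inserted into the genome. They were described here in RNA-seq libraries of a human embryonic stem cell line. The group was chosen by a rule on the measured level: a row of the count table had to be annotated as a processed pseudogene in GENCODE 44, to carry a symbol that begins with RPL or RPS and ends in P and a number, and to have a mean over the 10 libraries of at least 1 CPM (the count as a share of the library total, times 1e6). Of 1416 such pseudogenes in the count table, 1177 had any count and 229 reached the limit, out of 55841 rows in all. These 229 pseudogenes comprised 157 copies of large subunit (RPL) and 72 copies of small subunit (RPS) genes, and all 229 passed the filter on low counts. The 3 just inside the limit were RPL21P120 at a mean of 1.07 CPM, RPL13AP6 at 1.06 CPM and RPL39P16 at 1.05 CPM, and the 3 just outside were RPL7AP20 at 0.999 CPM, RPL24P6 at 0.997 CPM and RPL17P5 at 0.991 CPM.

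The study used cells that the labels call HES9, grown in mTESR1 medium on matrigel. The general population was not sorted, and the HHH population was the fraction sorted for high EPCAM, GCTM-2 and CD9, a subset that the study describes as enriched for self-renewal. There were 2 general and 2 HHH libraries in batch 1, and 3 general and 3 HHH libraries in batch 2. Nothing in the labels gives the replicates as separate cultures, so p-values measure the spread between these libraries, which may be technical. Since RNA came from bulk samples, fewer cells of a type and less RNA per cell cannot be told apart. The column totals ran from 47242595 to 78503395 counts, so that 3 counts stood for 0.0459 to 0.0686 CPM after TMM scaling. The summed level of 6 pluripotency markers lay between 3641 and 5111 CPM in the 10 libraries. Among them POU5F1 and NANOG had higher means in HHH, at 569 and 44.1 CPM against 516 and 32.5 CPM in general. SOX2 and LIN28A had lower ones, at 198 and 1842 CPM against 235 and 2108 CPM. POU5F1 was above general in batch 2 only. In batch 1 it had 461 to 531 CPM in HHH and 530.4 to 541 CPM in general. Of the antigens used for sorting, EPCAM was higher in HHH in both batches. CD9 was higher in batch 2, but in batch 1 it overlapped, at 79.03 to 99.1 CPM in HHH and 85.6 to 105.05 CPM in general. The summed level of 5 fibroblast markers was 103 to 125 CPM in batch 1, and in batch 2 it was 133 to 138 CPM in general and 77.9 to 100.02 CPM in HHH. COL1A1 and COL1A2 made up nearly all of it, and DCN was at 0 in 9 libraries. Their part in the results was not tested. The summed level of 6 mesoderm and endoderm markers lay between 0.704 and 2.51 CPM. Small nuclear and nucleolar RNAs took 2.71% to 4.97% of the counts in batch 1 and 0.418% to 0.727% in batch 2.

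A ribosome carries 1 copy of nearly every ribosomal protein, and each of these proteins is encoded by a gene with introns that is among the most highly expressed of a growing cell. Their short, abundant mRNAs are frequent templates for LINE-1 reverse transcriptase, which leaves intronless copies with no promoter of their own scattered over the chromosomes. Most copies have gathered mutations that break the reading frame. A copy that has changed little still shares long stretches with the parent mRNA, and a sequencing read that lies inside a stretch identical in both cannot be assigned to 1 of them from its sequence.

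The sequences of 5 members are shown with those of their parents, because the length of shared sequence sets what a count at these rows can stand for. Each sequence is part of the coding sequence, 5′ to 3′, from GENCODE 44 transcripts, with the genome position of the pseudogene in GRCh38. Capitals mark the bases at which pseudogene and parent differ, and each stretch is the one of at most 120 coding bases, aligned without a gap, that held the most differences. RPL39P3, RPL22P13, RPL41P2 and RPL27AP5 stand for the levels and calls given later, and RPL37P2, chosen after its values were seen, for the difference between batches.

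RPL39P3, on the minus strand at chr6:73373144-73373263 inside an intron of OOEP, had 0 differences from RPL39 over its 156 bases, so the first 120 bases of the coding sequence are printed once for both.
RPL39P3 and RPL39: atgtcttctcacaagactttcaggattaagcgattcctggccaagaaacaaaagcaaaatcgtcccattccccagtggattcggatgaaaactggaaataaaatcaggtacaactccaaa
RPL41P2, on the plus strand at chr15:28315693-28315767 inside an intron of HERC2 that runs on the opposite strand, had the same 75 coding bases as RPL41, and its 3 mismatches lay outside them.
RPL41P2 and RPL41: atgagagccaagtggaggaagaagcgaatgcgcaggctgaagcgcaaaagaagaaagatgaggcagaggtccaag
RPL22P13 lies on the plus strand of chromosome 4 inside an intron of a gene on the same strand. The part at chr4:54221135-54221249 had 4 differences from RPL22L1, to which RPL22P13 was closer than to the RPL22 of its symbol.
RPL22P13: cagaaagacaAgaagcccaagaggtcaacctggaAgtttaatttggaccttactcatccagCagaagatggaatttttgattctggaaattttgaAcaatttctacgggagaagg
RPL22L1: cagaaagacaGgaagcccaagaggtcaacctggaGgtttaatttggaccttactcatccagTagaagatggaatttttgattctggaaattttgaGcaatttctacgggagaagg
RPL37P2, on the minus strand at chr11:67682939-67683058 outside other genes, had 7 differences in 120 bases.
RPL37P2: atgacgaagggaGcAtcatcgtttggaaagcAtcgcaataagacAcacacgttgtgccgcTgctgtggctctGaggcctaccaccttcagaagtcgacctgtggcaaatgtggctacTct
RPL37: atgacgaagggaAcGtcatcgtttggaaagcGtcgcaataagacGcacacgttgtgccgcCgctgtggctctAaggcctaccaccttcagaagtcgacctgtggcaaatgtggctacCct
RPL27AP5, on the minus strand at chr5:74990452-74990571 inside an intron of a gene on the same strand, had 15 differences in 120 bases, the most of the 5 stretches.
RPL27AP5: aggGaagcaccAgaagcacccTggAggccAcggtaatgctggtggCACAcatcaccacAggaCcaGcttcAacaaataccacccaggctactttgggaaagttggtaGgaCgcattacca
RPL27A: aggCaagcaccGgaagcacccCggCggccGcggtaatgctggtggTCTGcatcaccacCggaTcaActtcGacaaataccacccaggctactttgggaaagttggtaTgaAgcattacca

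The pseudogenes that reached 1 CPM were closer to their parents than those that did not. Each was aligned to the ribosomal protein gene it matched best, which was the gene of its symbol for 226 of 229. The median identity to the parent transcript was 96.3% among the 229 members and 89.5% among the 1187 rows below 1 CPM. Among the 948 rows below 1 CPM that had a count, it was 90.7%. The longest stretch identical to the parent had a median of 98 bases among the members and of 36 bases among the rows below 1 CPM, and 112 members had a stretch of at least 100 bases. The members were also more complete. A median of 99.6% of the parent's coding sequence was covered, against 96.7% below 1 CPM, and 203 members covered at least 95% of it. An uninterrupted alignment with no gap was found in 102 members, and 226 consisted of 1 exon. These comparisons are descriptions of a group chosen by its level, and no test was run on them.

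**Figure D1:**
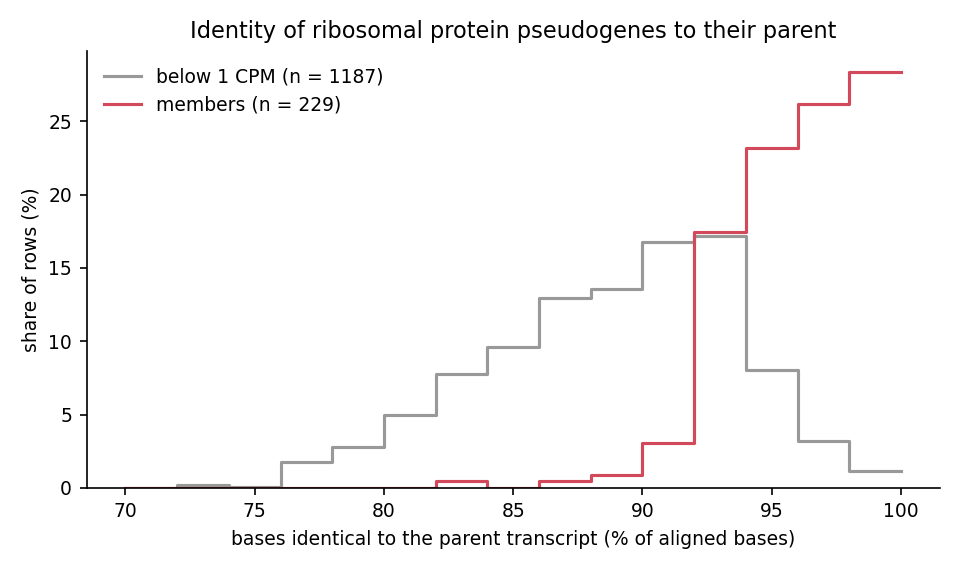
Identity of ribosomal protein pseudogenes to the parent transcript (x axis, % of aligned bases in steps of 2) against the share of pseudogenes in each step (y axis, %), for the 229 members and the 1187 rows below 1 CPM. The members crowd toward full identity, with 28.4% of them at 98% or more against 1.18% of the rows below the limit. The parent was the best match for the members and the gene of the symbol for the rows below the limit.

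By position, 106 members lay outside other annotated genes, 63 in an intron of a gene on the opposite strand and 43 in an intron of a gene on the same strand. Exons of another gene overlapped 10 members on the opposite strand and 7 on the same strand, and counts at these 17 cannot be separated from those of the overlapping gene. The mean level of the intronic members on the same strand had a median of 7.22 CPM, of those on the opposite strand 10.5 CPM, and of the members outside genes 9.19 CPM. Whether reads were counted by strand is not given in the sources used here.

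The members differed widely in level. The mean before scaling ran from 1.05 to 845.0 CPM with a median of 9.17 CPM. After TMM scaling 42 members had at least 100 CPM, 68 had 10 to 100 CPM, 119 had less than 10 CPM, and the 10 with the most counts held 35.3% of the members' summed CPM. Those 10 were RPL13AP5, RPS3AP6, RPL4P4, RPS18P5, RPL18AP3, RPL7P9, RPL7AP6, RPL3P4, RPL39P3 and RPL23AP42, and they derive from core proteins of both subunits. None of them had more than 20 mismatches to the parent. Per kilobase of length, which allows a comparison between genes, the members had a median of 18.9 CPM per kb and a maximum of 2299 CPM per kb at RPL39P3, a copy of the gene for a very small protein of the ribosomal exit tunnel.

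RPL13AP5 illustrates the upper end. It had 893 and 836 CPM in the general libraries of batch 1, 753 and 732 CPM in HHH of batch 1, 846, 819 and 789 CPM in general of batch 2, and 845, 827 and 1038 CPM in HHH of batch 2. RPL13A, a large subunit protein gene that also hosts small nucleolar RNAs, had 538 and 485 CPM, 504 and 456 CPM, 516, 529.9 and 568 CPM, and 489.5, 504 and 616 CPM in the same order. Replicate 3 of HHH in batch 2 was the highest library for both. Per kilobase of transcript the mean of the pseudogene was 1369 CPM per kb and that of the parent 462 CPM per kb.

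RPS3AP6, a copy of a small subunit protein gene, had 810.2 and 712 CPM in general and 658 and 576 CPM in HHH of batch 1, then 489.8, 553 and 436 CPM in general and 511, 537 and 750.4 CPM in HHH of batch 2. The general libraries of batch 2 overlapped with 2 of the 3 HHH libraries. RPL39P3 had 489.9 and 414 CPM in general and 400.4 and 366 CPM in HHH of batch 1, and 289.6, 319.9 and 236 CPM in general and 315, 327 and 428 CPM in HHH of batch 2, where the groups overlapped as well. Its parent RPL39, which shares all 156 bases, had 198 and 166, 177 and 148, 83.8, 92.3 and 67.4, and 88.9, 94.5 and 125 CPM, and the order of the libraries within each group was the same for both. Per kilobase the copy had 2299 and the parent 318 CPM per kb.

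Such an order was found at 35 members when the parent's level was taken per kilobase of its canonical transcript, and at 14 members when it was taken per kilobase of the parent's coding sequence, a choice made after seeing that some canonical transcripts hold long untranslated parts. The parents of RPL14P1 and RPL37P2, for instance, have canonical transcripts of 7136 and 7573 bases. By either length, RPS28P7 stood highest against its parent. It had 191 and 179 CPM in general and 199 and 189 CPM in HHH of batch 1, then 166, 187 and 187 CPM in general and 169, 179 and 196 CPM in HHH of batch 2, whereas RPS28, a small subunit protein gene, stayed between 3.998 and 6.06 CPM in the same libraries. Its 210 bases were all identical to the parent mRNA, and the ratio per kilobase was 236 by transcript length and 36.7 by coding length. RPL36AP37, with 0 mismatches over 321 bases, came next with ratios of 40.5 and 16.9. It had 373 and 327 CPM in general and 303 and 293 CPM in HHH of batch 1, and 329, 350.1 and 289.7 CPM in general and 337, 349 and 419 CPM in HHH of batch 2, while RPL36A stayed between 15.3 and 24.3 CPM. RPL18AP3, with 1 mismatch, had ratios of 8.34 and 6.94, and RPL7P9, with 2 mismatches, had ratios of 8.62 and 5.20. RPL14P1 had 12.1 by transcript length but 1.09 by coding length.

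The median ratio to the parent fell as mismatches rose, but the ranges overlapped widely. Per kilobase of transcript it ran from 0.0491 to 236 with 0 to 5 mismatches and from 0.00139 to 3.11 above 30 mismatches. The number of mismatches was not scaled to the length of the copy, which ran from 78 to 1311 bases. Members with 0 to 5 mismatches to the parent (n = 36) had a median of 246 CPM per kb and a median ratio to the parent of 1.04 per kilobase of transcript, and 20 of them exceeded the parent. With 6 to 15 mismatches (n = 65) the median ratio was 0.162 and 13 exceeded the parent. At 16 to 30 mismatches (n = 70) the median ratio was 0.0343, and above 30 mismatches (n = 58) it was 0.0184, with 1 member above its parent in each. By coding length, 13 of the 14 members above the parent had at most 4 mismatches, and RPL14P1 had 8. Across the 229 members the Spearman correlation of the level per kilobase with identity was 0.477 and with the longest identical stretch 0.404. These points share libraries and often a parent, and the coefficients are descriptions only. Summed over copies, the members had more counts than their parent at 19 of the 68 parent genes. How reads that match several places were counted is not given in the sources used here, and how much of a member's count came from its own transcript was not tested.

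**Figure D2:**
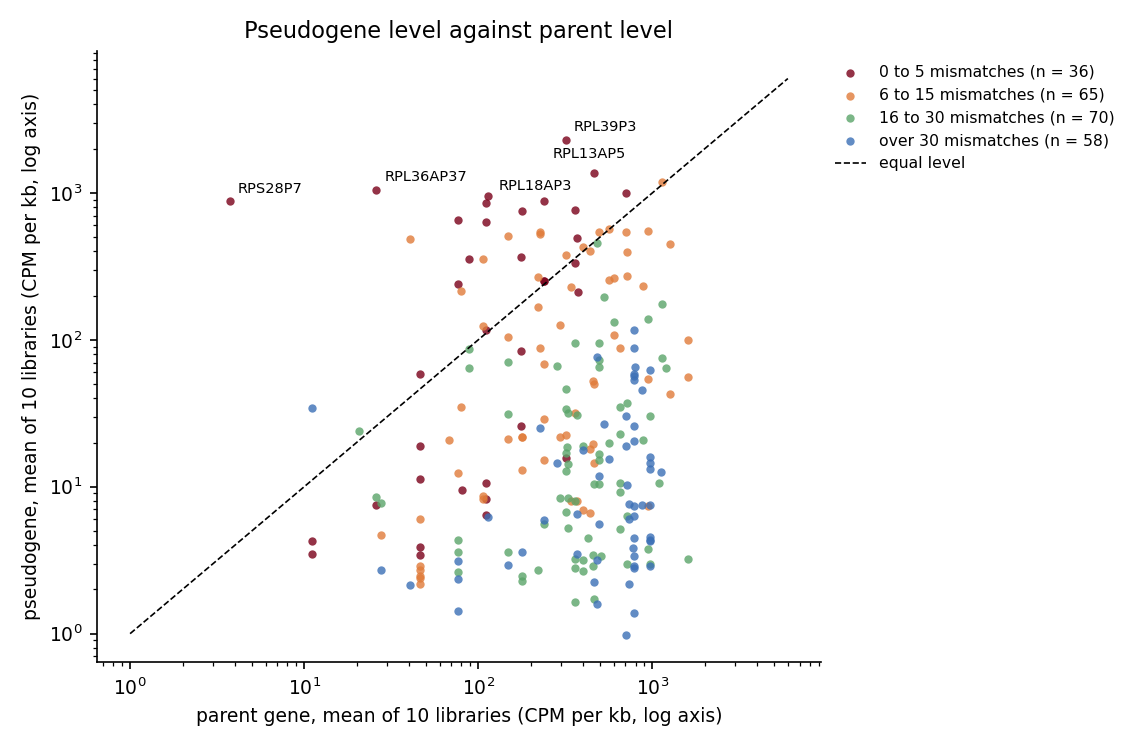
Mean level of each of the 229 pseudogenes (y axis, CPM per kb, log scale) against that of its parent gene (x axis, CPM per kb of canonical transcript, log scale), with colours for the number of mismatches to the parent. Dark red points, with 0 to 5 mismatches, make up 20 of the 35 pseudogenes above the dashed line of equal level, and RPS28P7 and RPL36AP37 lie farthest above it.

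Large families did not share a level. The 14 members derived from RPL5, a protein of the 5S ribonucleoprotein particle, ran from 1.22 to 104 CPM. The 11 copies of RPL21 ran from 1.09 to 28.2 CPM although all of them were at least 97.9% identical to the parent, and the 10 copies of RPS4X, the X-linked gene of a small subunit protein, ran from 2.22 to 48.1 CPM at 91.5% to 95.1% identity. Families of 9 were found for RPL7 and RPL7A, with ranges of 1.07 to 489 CPM and 3.62 to 433 CPM. The highest copy of RPL7, RPL7P9, also had the highest identity of that family, 99.7%.

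The first question of the design was whether HHH cells differ from the general population. At these pseudogenes no member passed the call in the comparison over both batches. A call needed an adjusted p under 0.05 in the quasi-likelihood F test of edgeR, adjusted by Benjamini-Hochberg over all 23552 tested genes, and a fold change over 1.5. With batch as a term, 0 of 229 members were called where 2.98% of all tested genes were. At an unadjusted p under 0.05 there were 16 members, where 20.9% of all genes passed. Their number was 43 with libraries of the same replicate number paired and 9 without replicate 2 of general in batch 2. The share of all genes at this limit was taken for the reported fit only, so the 43 and the 9 have no background beside them. DESeq2 called 1 member, RPL22P13, where it called 768 genes in all, and limma with voom called 0, where it called 705. In the paired fit edgeR called 2 members, RPL5P24 and RPS15AP38, where 3.48% of all genes were called. Replicate 1 of general and replicate 3 of HHH in batch 1 had no partner in that fit and did not enter its population difference. Without the limit on the fold, 1 member passed where 5.83% of all genes did. This was RPL35P1, a copy of a large subunit protein gene that is named after its values were seen, with 38.02 and 38.5 CPM in general and 50.2 and 41.9 CPM in HHH of batch 1, and 47.8, 42.7 and 51.3 CPM in general and 58.9, 55.8 and 66.5 CPM in HHH of batch 2. HHH lay above every general library within each batch, and the log2 fold change was 0.32 ± 0.08 (SE, adjusted p = 0.0289 by edgeR). RPL35 itself had 0.27.

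The median log2 fold change of the 229 members was 0.09, and 169 of them (73.8%) were positive. All tested genes had a median of 0.02, the 68 parents 0.12, and 1201 other processed pseudogenes of at least 1 CPM 0.08. Their positive shares were 53.0%, 97.1% and 69.9% in that order. Among the 32 small subunit and 47 large subunit protein genes of the ribosome, 0 of each were called and the medians were 0.13 and 0.11. Of 15 translation elongation and associated factors 0 were called, and of 17 tested ribosome assembly factors 0 were called. At an unadjusted p under 0.05 the counts in these 4 lists were 4, 8, 0 and 2. Member minus parent was within 0.25 on the log2 scale for 201 of 229 members, and 174 had the sign of the parent.

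The 10 members with the most counts had small differences between the populations. RPL13AP5 had a log2 fold change of -0.0014 ± 0.09 (SE), RPL7P9 0.04 ± 0.09 and RPL23AP42 0.11 ± 0.07, and RPS18P5, a copy of a small subunit protein gene, had 0.16 ± 0.12, the highest of the 10. The adjusted p values of these 4 were 0.996, 0.851, 0.390 and 0.507 by edgeR. RPS28P7 and RPL36AP37, the copies that exceeded their parents the most, had 0.04 ± 0.07 and 0.02 ± 0.10 (adjusted p = 0.819 and 0.930).

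Within each batch the values differed. In batch 1 the members had a median of -0.04 and 101 of 229 were positive, and in batch 2 the median was 0.17 and 168 were positive. All tested genes had medians of 0.01 and -0.01. In batch 1 and batch 2, 44.1% and 73.4% of the members were positive. The shares were 50.8% and 49.0% for all tested genes, and 39.5% and 76.1% for the other processed pseudogenes. The batch 1 median was 0.02 without replicate 3 of HHH and -0.13 without replicate 2 of HHH, so that its sign depended on 1 library. The interaction of batch and population had a median of 0.22 over the members, 0.26 over the parents and 0.24 over the other processed pseudogenes, where all tested genes had -0.01. Without replicate 3 of HHH in batch 2 the members' median interaction was 0.04. Of the 229 members, 110 were negative in batch 1 and positive in batch 2. The members summed to 13042, 13568 and 12253 CPM in the general libraries of batch 2, and to 13676, 13871 and 17248 CPM in HHH. Replicate 3 of HHH in batch 2 was the highest of the 3 at 199 of the 229 members and at 64 of the 68 parents. Without it, the median of the members in batch 2 was 0.04, and over both batches it was -0.01.

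**Figure D3:**
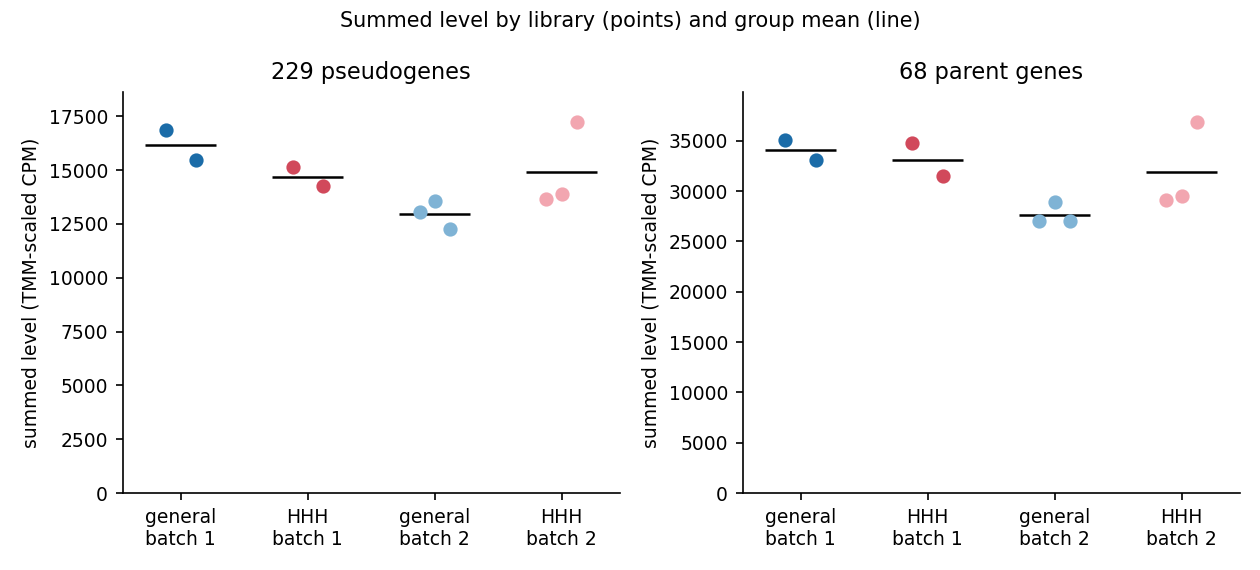
Summed level of the 229 pseudogenes (left) and of their 68 parent genes (right) in each library (y axis, TMM-scaled CPM), with a point per library and a line at the mean of each group. In both panels replicate 3 of HHH in batch 2 lies above the other libraries of batch 2, at 17248 CPM for the pseudogenes and 36899 CPM for the parents.

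The ratio of the members' sum to the parents' sum ran from 0.436 to 0.483 in the 10 libraries. In batch 1 it was 0.481 and 0.467 in general and 0.436 and 0.452 in HHH, which did not overlap. In batch 2 it was 0.483, 0.469 and 0.453 in general and 0.470, 0.469 and 0.467 in HHH, which overlapped. As a share of all counts before TMM scaling, the members took 1.27% to 1.40% in batch 1 and 1.45% to 1.78% in batch 2, the highest share again in replicate 3 of HHH in batch 2.

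In batch 1 alone, 1 of 229 members was called where 0.573% of all genes were. RPL27AP5, a copy of a large subunit protein gene with 43 mismatches, had 7.503 and 5.998 CPM in general and 0.771 and 0.709 CPM in HHH. The log2 fold change was -3.19 ± 0.24 (SE, adjusted p = 0.000795 by edgeR), and RPL27A had -0.01. Batch 2 did not follow this split. The pseudogene had 4.35, 0.631 and 1.03 CPM in general and 5.78, 0.466 and 0.724 CPM in HHH there, high in replicate 1 of both populations and low in the rest.

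In batch 2 alone, 5 members were called where 4.90% of all genes were, and 10 passed the adjusted p alone where 13.2% of all genes did. With the replicate number as a block, edgeR called 10 members there, where 5.53% of all genes were called, among them RPL22P13, RPL34P6, RPL41P2 and RPL4P3 but not RPL35P2. RPL22P13, the copy closest to RPL22L1, had 5.34, 4.42 and 3.27 CPM in general and 6.98, 7.72 and 10.3 CPM in HHH. Every HHH library lay above every general library. The log2 difference was 0.93 ± 0.18 (SE, adjusted p = 0.00488 by edgeR). In batch 1 the values were 7.63 and 8.63 CPM in general and 9.60 and 8.33 CPM in HHH, which overlapped, and over both batches the log2 fold change was 0.62 ± 0.17 (adjusted p = 0.0512).

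RPL22L1 encodes a paralog of RPL22 that can take its place in the ribosome. It was the 1 parent of 68 called in the fit over both batches, and in batch 1 alone it was not called. It had 139 and 172 CPM in general and 209.8 and 158 CPM in HHH of batch 1, and 84.7, 77.3 and 59.8 CPM in general and 124, 118 and 156 CPM in HHH of batch 2. Its log2 fold change was 0.60 ± 0.14 (SE, adjusted p = 0.0205 by edgeR), and without replicate 3 of HHH in batch 2 it was 0.50 and no longer called. In batch 2 alone RPL22L1 had 0.84, beside 0.93 for the pseudogene, which was 96.2% identical to it. The difference between them was not tested.

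The other calls of batch 2 were RPL35P2, RPL34P6, RPL41P2 and RPL4P3. RPL35P2 had 41.1, 34.5 and 32.2 CPM in general and 49.1, 46.0 and 68.5 CPM in HHH, and its log2 fold change was 0.59 ± 0.14 (SE, adjusted p = 0.0144 by edgeR), and an exon of another gene overlaps it on the opposite strand. RPL34P6 had 1.67, 1.49 and 1.27 CPM in general and 2.44, 1.83 and 2.83 CPM in HHH, with 0.67 ± 0.19 (adjusted p = 0.0335). For both the HHH libraries stood clear of the general ones, while their parents had 0.32 and 0.34. RPL4P3, with 84 mismatches to the gene of a large exit tunnel protein, went the other way. It had 6.90, 2.75 and 5.81 CPM in general and 2.23, 2.30 and 3.07 CPM in HHH, which overlapped, and its log2 difference was -1.03 ± 0.26 (adjusted p = 0.0229), where RPL4 had 0.13.

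RPL41P2, a copy of the gene for the smallest ribosomal protein, moved in opposite directions in the 2 batches. It had 7.84 and 9.57 CPM in general and 18.4 and 11.8 CPM in HHH of batch 1, and 9.71, 14.3 and 11.9 CPM in general and 7.34, 5.39 and 9.10 CPM in HHH of batch 2. The groups did not overlap in either batch. The log2 fold change was 0.79 ± 0.21 (SE, adjusted p = 0.189) in batch 1 and -0.72 ± 0.17 (adjusted p = 0.0167) in batch 2, and their difference of -1.51 ± 0.31 passed the interaction test (adjusted p = 0.0422 by edgeR). It was the 1 member of 229 to do so, where 0.777% of all genes did. RPL41, whose coding sequence is the same, had an interaction of 0.39.

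**Figure D4:**
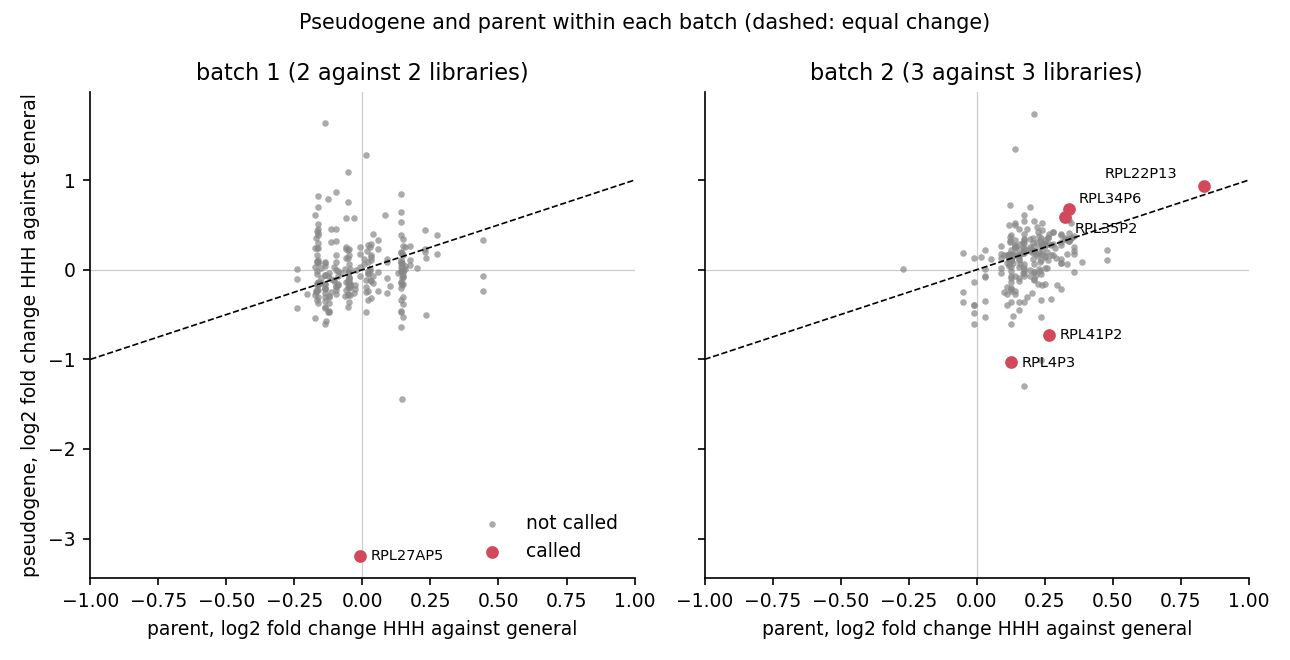
Log2 fold change of HHH against general for each pseudogene (y axis) and its parent gene (x axis), in batch 1 (left) and batch 2 (right), with called pseudogenes in red and a dashed line of equal change. RPL27AP5 is the 1 call in batch 1, and in batch 2 RPL22P13 lies close to the line while RPL41P2 and RPL4P3 fall below it.

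A further pseudogene, RPS29P11, stayed just below the limit at a mean of 0.958 CPM and is given because an earlier account of these data named it. It was called in the fit over both batches, but in neither batch alone (adjusted p = 0.0858 in batch 1 and 0.268 in batch 2 by edgeR). The counts behind it ran from 10 to 204 per library. It had 0.857 and 1.14 CPM in general and 4.37 and 2.17 CPM in HHH of batch 1, and 0.173, 0.228 and 0.367 CPM in general and 0.446, 0.225 and 0.565 CPM in HHH of batch 2. The log2 fold change was 1.26 ± 0.31 (SE, adjusted p = 0.0274 by edgeR), and the groups of batch 2 overlapped.

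Some pseudogenes differed several-fold between libraries of 1 group. The highest over the lowest library within a group had a median of 1.53 across members, taking for each the group in which it was largest, and 10 members exceeded 4-fold. The 6 with the largest spread, chosen after their values were seen, were RPL30P4, RPL27AP5, RPS4XP3, RPL23P2, RPL5P29 and RPL31P17. RPL30P4, which lies on chromosome 3 outside other genes with 16 mismatches to its parent, had 24.97 and 65.9 CPM in general and 36.9 and 24.4 CPM in HHH of batch 1. In batch 2 it had 1.41, 1.46 and 24.8 CPM in general and 1.37, 24.3 and 45.6 CPM in HHH. It was thus near 1.4 CPM in 3 libraries and at 24.3 CPM or more in the other 7, and the count behind it ran from 80 to 3932. RPL30, its parent, lay between 464 and 705 CPM in all 10.

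RPS4XP3 was high in a single library. It had 9.54 and 10.3 CPM in general and 8.80 and 8.90 CPM in HHH of batch 1, 6.11, 7.09 and 6.75 CPM in general of batch 2, and 5.65, 6.06 and 55.2 CPM in HHH of batch 2. The last value was again replicate 3 of HHH in batch 2, and RPS4X, its parent, lay between 1079 and 1493 CPM in batch 2. The log2 fold change of 1.00 ± 0.55 (SE, adjusted p = 0.319 by edgeR) was the highest of the 229 members and the cause of the high library was not tested.

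RPL23P2 had 12.8 and 1.42 CPM in general and 15.9 and 19.03 CPM in HHH of batch 1, and 5.03, 0.807 and 1.17 CPM in general and 1.32, 1.28 and 2.33 CPM in HHH of batch 2. RPL5P29 was at 25.4 CPM in the third replicate of HHH of batch 1 and between 2.71 and 8.46 CPM in the other 9 libraries. RPL31P17 was at 25.5 CPM in the first general library of batch 1 and between 2.88 and 7.05 CPM in the others. All 6 had at least 16 mismatches to the parent. The parents RPL23, RPL5 and RPL31 lay between 671 and 864, 693 and 954, and 346 and 520 CPM in the 10 libraries.

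**Figure D5:**
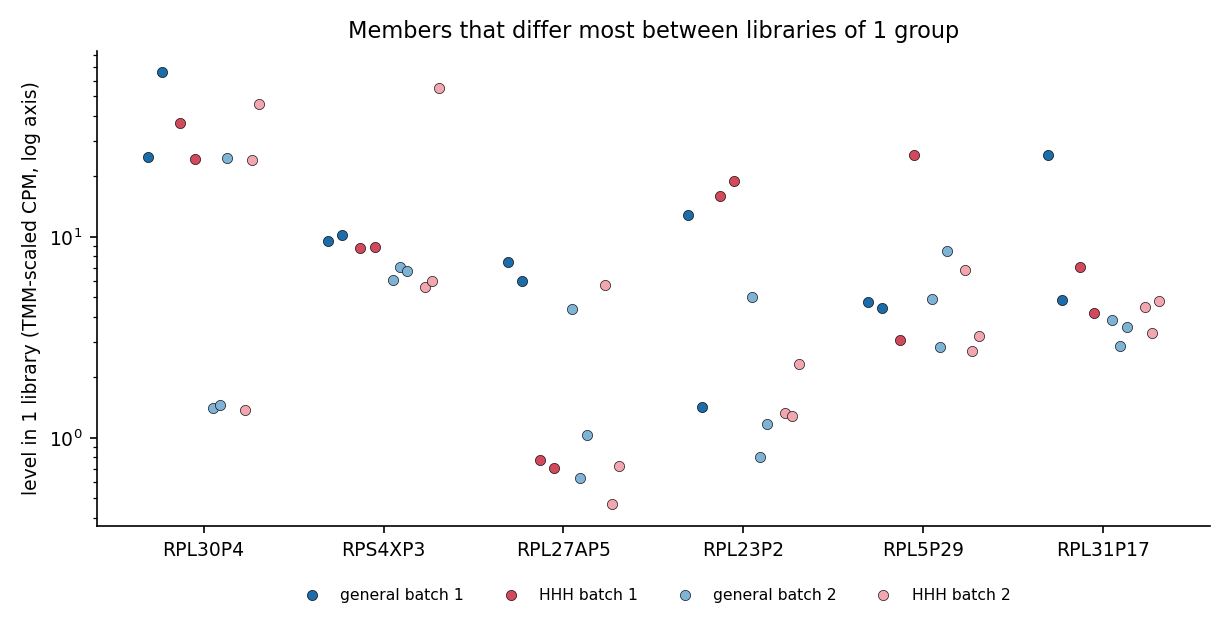
Level in each library (y axis, TMM-scaled CPM, log scale) of the 6 pseudogenes with the largest spread within a group, with a point per library coloured by group. RPL30P4 falls to about 1.4 CPM in 3 libraries of batch 2, and RPS4XP3 reaches 55.2 CPM in 1 HHH library of batch 2.

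The batches differed more than the populations. Between batch 2 and batch 1, with population as a term, 57 of 229 members were called where 21.5% of all tested genes were. Lower in batch 2 were 47 members, beside 8.92% of all genes, and higher were 10 members, beside 12.5% of all genes. The median of the members was -0.24, that of all tested genes 0.00, that of the parents -0.20 and that of the other processed pseudogenes -0.08. The split depended on the scaling. With library size in place of TMM, 53 members were called, 21 lower and 32 higher. Of the 23552 tested genes 7628 were called there, against 5053 with TMM. The median of all tested genes rose to 0.34 and that of the members to 0.09. The median of the members minus that of all genes was -0.244 under both scalings. A change of scaling factors shifts all genes of a library alike, so this equality was fixed in advance and is no test of the scaling. What sets the batches apart is not given in the sources used here.

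Of the 57 members called between the batches, 50 differed in the direction of the parent, and 9 had a parent that was called too. Members within 0.25 of the parent on the log2 scale numbered 94 of 229, against 201 in the population comparison, in which the differences themselves were smaller. Across the 229 members, which share libraries and often a parent, the Pearson correlation with the parent's difference was 0.411 between batches and 0.217 between populations, as a description. The following examples were chosen after their values were seen. RPL37P2, a copy of a large subunit protein gene, had 98.5, 91.8, 87.9 and 85.3 CPM in the 4 libraries of batch 1 and 39.9, 36.4, 33.9, 44.02, 40.998 and 54.3 CPM in the 6 of batch 2. Its log2 difference was -1.14 ± 0.10 (SE, adjusted p = 1.29e-06 by edgeR), where RPL37 had -0.19. RPS24P19, which lies in an intron of GPC3 on the opposite strand, went up instead, from 135, 133, 136 and 139 CPM to 206, 189.6, 189, 229, 221 and 289 CPM, by 0.69 ± 0.09 (adjusted p = 4.87e-05), where RPS24 had 0.33.

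Some families were called in 1 direction. Of the 10 copies of RPS4X, 6 were called lower in batch 2 and 0 higher. RPS4XP22, the most diverged of them, had 16.8, 18.1, 22.2 and 17.0 CPM in batch 1 and 7.51, 8.45, 8.96, 7.88, 8.69 and 9.59 CPM in batch 2, a log2 difference of -1.12 ± 0.10 (adjusted p = 8.20e-07 by edgeR), where RPS4X had -0.43. All 4 copies of RPL10, a further family named after its values were seen, were called lower, and RPL10 itself was lower with -0.80. These family calls depended on TMM. With library size in its place, only RPL10P8 of the RPL10 copies was called. Of the RPS4X copies, RPS4XP8, RPS4XP13, RPS4XP14 and RPS4XP22 were. RPS29P17 had 15.6, 14.9, 18.8 and 17.1 CPM in batch 1 and 3.71, 1.88, 5.15, 3.47, 4.25 and 4.89 CPM in batch 2, and the batches did not overlap. Its log2 difference was -2.09 ± 0.19 (adjusted p = 1.10e-06) beside -1.30 for RPS29, the parent with the largest difference. Among the higher members, RPL19P16 ran from 1.93 to 3.13 CPM in batch 1 and from 4.26 to 7.58 CPM in batch 2, a log2 difference of 1.14 ± 0.15 (adjusted p = 3.33e-05 by edgeR). RPL13AP25 ran from 19.6 to 22.1 CPM in batch 1 and from 30.8 to 44.8 CPM in batch 2, a difference of 0.85 ± 0.10 (adjusted p = 2.09e-05). Their parents RPL19 and RPL13A had 0.16 and 0.12.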

How the data were processed

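RNA-seq counts of 10 libraries were analysed. The authors deposited whole read counts per Ensembl gene without normalization, and a score of log2 values scaled by TMM to RPKM, used here for 1 alternative only. The submitters' processing notes name GRCh37, CASAVA 1.8.2, R 3.2.2 and limma 3.26.9. The aligner, the counting rule and the annotation are not given in the sources used here. The labels call the cells HES9 while the study's text names WA09, and its design mentions protein kinase C inhibitors that no label carries; neither point is resolved here.

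Identifiers were matched to GENCODE 44 (GRCh38), in which 88.5% were found. Members, lists and the rule for named pseudogenes were chosen with earlier results of these data known. Named were the 10 members with the most counts, called members (also in each batch alone and in the interaction), the 3 on each side of the limit, the 5 with the highest ratio per kilobase to the parent the largest families, by ranges, and the parents. RPS29P11 is given because an earlier account of these data named it. Members were aligned to parent transcripts with Biopython 1.88 (match 1, mismatch -2, gap opening -4, extension -1).

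Genes were kept by filterByExpr (minimum count 10). Counts were scaled by TMM, with factors from 0.832 to 1.18, and CPM values in the text use them unless the rule for members is meant. The test was edgeR's quasi-likelihood F test (version 4.0.16, run under R 4.3.3). It was fitted with batch added, in each batch alone and with the interaction, and p-values were adjusted by Benjamini-Hochberg across every gene tested. Calls needed an adjusted p under 0.05 and a fold over 1.5 (interaction: adjusted p alone). The SE was the log2 fold change over the square root of F. The test was tried on simulated counts first. DESeq2 1.42.0 and limma 3.58.1 served as alternatives.

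Replicate numbers came from the titles. Deviations from the group means correlated at 0.239, 0.143 and 0.113 between libraries of the same number in batch 2, so the numbers were taken to pair the libraries there. The reported fits, with their SE and adjusted p, left this pairing out. The replicate number was a block only in the alternative fits named as such. With the block over both batches the members' median log2 fold change was 0.13, against 0.09 in the reported fit. In batch 1, with 2 libraries a group and 1 shared number, the check gives no answer. The sequence of 1 further pair is not reported here.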

Additional observations from a re-analysis of the deposited data

Results flagged for a closer look

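RPL41P2 stood out because its difference between HHH and general was not the same in the batches. The log2 fold change was 0.79 in batch 1 and -0.72 in batch 2, a difference of -1.51 in the interaction test of edgeR (adjusted p = 0.0422). Of 14 settings tried for that test, 7 made this call. It was lost without replicate 1 or 2 of general or replicate 2 of HHH in batch 1, and without replicate 2 or 3 of general or replicate 1 or 2 of HHH in batch 2. The counts behind it ran from 312 to 859 per library.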

How the results depend on the processing

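Over both batches, 0 members were called with RLE scaling, library size only, a limit of 1 CPM in 5 libraries, no batch term, limma with voom or limma on the deposited log2 values. Among all genes these settings called 706, 656, 491, 151, 705 and 738 in that order. There was 1 member called with DESeq2, 1 without the fold limit, 5 with no filter on low counts and 0 to 1 leaving out a library. The calls among all genes were 768, 1373, 1114 and 523 to 963 in the same order. With the replicate block there were 2, and in batch 2 alone 10. The median of the members was -0.05 with the deposited log2 values, where all genes had -0.13, and -0.01 without replicate 3 of HHH in batch 2.

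In batch 1 alone, DESeq2 called 2, where it called 372 genes in all. Leaving out a library there left 1 library in a group, so the calls of those fits are not given. The members' median in those fits ran from -0.13 to 0.02. RPL27AP5 was called with TMM, with library size only and with DESeq2. In batch 2 alone, library size only gave 3, and leaving out a library gave 3 to 11. There were 11 and 8 without HHH replicate 1 and 2, and 8 and 3 without general replicate 1 and 3. Among all genes library size only called 1269, and leaving out a library called 787 to 1194. RPL22P13 was called under all 10 settings, RPL41P2 under 7, and RPL35P2, RPL4P3 and RPL34P6 under 5 each. DESeq2 found 8 interactions among the members, where it found 838 among all genes. Leaving out a library of batch 2 gave 0 to 1, where 25 to 114 of all genes passed. Between batches, 24 members, 19 of them lower in batch 2, were called under all 14 settings. Single settings called 4615 to 7628 of all genes. How many of all genes passed every setting was not counted, so the 24 have no background beside them. Members above the parent per kilobase numbered 14 by coding length, against 35, a choice added after seeing the data. Limits of 0.5 and 2 CPM gave 304 and 189 members. The causes were not tested. For 41 named genes, 767 values kept their side of the threshold, 6 gained a call and 6 lost it, all of the latter RPL22L1. Of the 767, 66 had the other sign, at 25 genes that were not called in either fit and whose reported log2 fold change was at most 0.138 in size.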
